A study of Drosophila melanogaster with 14 samples.

Results

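The 10 genes described here encode heat shock proteins and their constitutive relatives. They are the small heat shock protein genes Hsp22, Hsp23, Hsp26, Hsp27 and Hsp67Bc, the Hsp70 family genes Hsp68, Hsc70-3, Hsc70-4 and Hsc70-5, and the Hsp90 family gene Hsp83. They were taken as a list of gene names, with no threshold on a measured value but with earlier results of these data known, from the 17802 genes of the Release 6 gene table that had at least 1 measured fragment. The list leaves out relatives such as Hsp67Ba, Hsc70-1, Hsc70-2 and the Hsp70 copies, whose values are given with the other chaperone genes. Polymerase II (Pol II) occupancy was profiled in the adult Drosophila midgut by targeted DamID, in which a Dam methylase fusion is expressed in chosen cells and methylates GATC sites near the DNA it contacts. There were 2 samples of Dam-Pol II and 2 of Dam alone from intestinal stem cells and enteroblasts (ISC/EBs, labelled esg), and the same numbers from enterocytes (ECs, labelled myo). A fusion of Dam to the transcription factor (TF) Sox21a was profiled in ISC/EBs in 3 samples, beside 3 samples of Dam alone. The esg driver is active in ISCs and EBs together, so these are not told apart, and DNA was taken from whole dissected midguts. The sources used here do not state the strain, age, rearing temperature or any heat exposure of the flies.

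Heat shock proteins are chaperones that bind unfolded proteins. Small heat shock proteins hold unfolded proteins without using ATP, Hsp70 proteins bind and release them in an ATP cycle with the help of J proteins, and Hsp90 acts later on nearly folded clients such as kinases and receptors. In Drosophila the inducible genes are switched on by heat shock factor (Hsf), and several of them hold a paused Pol II near their start before any stress. The cognate (Hsc) genes are transcribed in unstressed cells. DamID reports contact of Pol II with DNA and does not separate paused from elongating Pol II.

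All values below are log2 ratios of a Dam fusion to Dam alone, taken from 1 track per experiment that the authors averaged over samples. The value of a gene is the mean over the GATC fragments that overlap it, each counted by the bases it shares with the gene. With 1 averaged track per experiment there is no spread between samples, no test could be made, and the sequencing depth is unknown. Counts of genes past a threshold in the main setting are therefore set beside the share of all genes past it. A gene was counted as occupied at a value of at least 1, which is a 2-fold excess over Dam alone. The tracks hold 383654 fragments with a median length of 197 bp. The ISC/EB track had a wider spread over fragments (SD 0.86) than the EC track (SD 0.65), so the gene-wide differences of the 10 genes are also given after quantile normalization of both Pol II tracks and after scaling the ISC/EB track to the SD of the EC track. Other values are on the deposited scale unless stated.

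The markers chosen for ISC/EBs and for ECs were higher in the population they were chosen for, with 1 exception on the deposited scale. The ISC/EB genes esg, Sox21a and Delta had Pol II values of 3.63, 3.46 and 1.45 in ISC/EBs and of -0.10, -0.43 and -0.15 in ECs. Of the EC markers, betaTry alone was below 1 in ISC/EBs (-0.21) and above 1 in ECs (2.16). The marker nub had 0.24 in ISC/EBs against 0.63 in ECs, below 1 in both. The exception was Myo31DF, the gene after which the EC driver is named, with 1.47 against 1.30. Its difference of 0.17 became -0.39 after quantile normalization and -0.18 at equal SD. The enteroendocrine genes pros and Tk and the muscle gene Mhc lay between -0.18 and 0.06 in both.

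On the deposited scale all 10 genes were occupied by Pol II in ISC/EBs, and in ECs the cognate genes, Hsp83 and Hsp67Bc were occupied as well. In ISC/EBs the values ran from 1.05 for Hsp26 to 3.44 for Hsp67Bc with a median of 1.66, against a median of 0.30 over all genes. In ECs they ran from 0.18 for Hsp26 to 1.95 for Hsp67Bc with a median of 1.18, against 0.01 over all genes. At least 1 was reached by 10 of 10 genes in ISC/EBs, where 29.4% of all genes did so, and by 5 of 10 in ECs (18.9% of all genes). The 10 were listed with earlier results of these data known, so this count does not stand for their families. Hsp67Ba, Hsc70-1, Hsc70-2 and the Hsp70 copies, all left out, were below 1 in ISC/EBs. There 1 was reached by 3 of 8 other genes listed as small heat shock proteins. So it was by 1 of 11 other Hsp70 and Hsp110 genes and 1 of 2 other Hsp90 genes. Of the 10 genes, the count in ISC/EBs was 8 after either rescaling, when Hsp22 (0.84 and 0.83) and Hsp26 (0.78 and 0.80) were below 1, 8 with the unweighted mean over fragments and 7 with their median. No share of all genes was computed for these other settings, so 29.4% is not their background. The same 5 were occupied in both populations, as were 15.1% of all genes. The EC values fell into a higher set at 1.58 to 1.95 (Hsp83, Hsc70-4, Hsc70-5, Hsc70-3 and Hsp67Bc) and a lower set at 0.18 to 0.78 (Hsp26, Hsp23, Hsp22, Hsp27 and Hsp68). This gap came with the weighting by length. With the unweighted mean, Hsp27 (1.11) and Hsp22 (1.28) lay beside Hsc70-4 (1.18), Hsc70-3 (1.29) and Hsc70-5 (1.31) in ECs, and no gap remained. The plot of the members in each track shows these levels with the range over fragments.

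**Figure D1:**
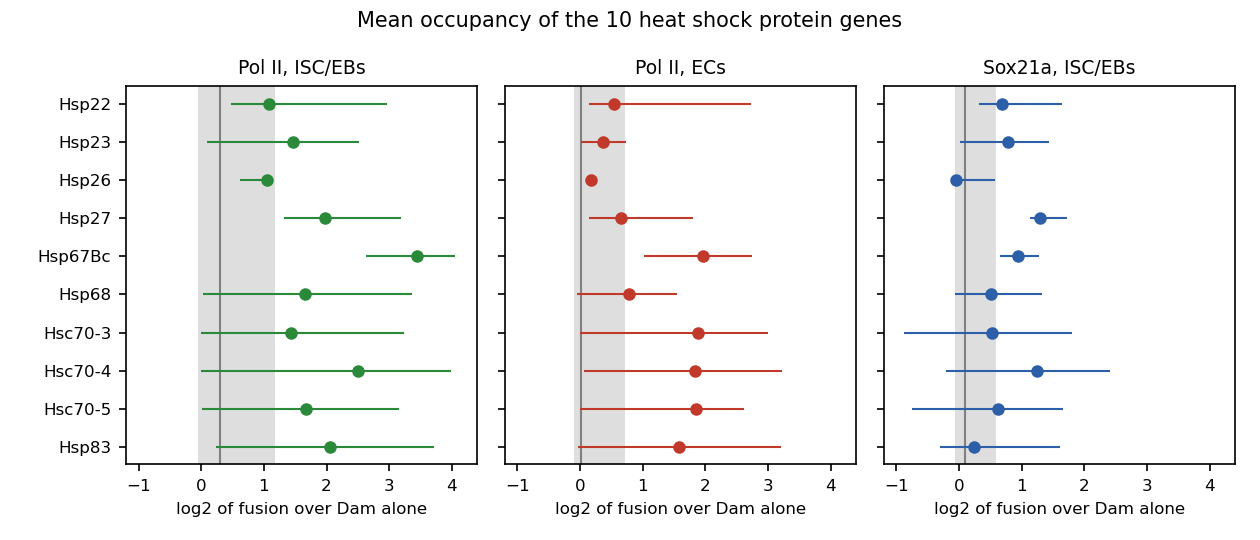
Mean log2 ratio of each heat shock protein gene (points) over Dam alone for Pol II in ISC/EBs, Pol II in ECs and Sox21a in ISC/EBs, with horizontal lines from the lowest to the highest fragment of the gene. The gray band spans the interquartile range of all genes and the vertical line marks their median; all 10 ISC/EB points lie at or above 1.05, and 5 EC points lie at or above 1.58 and 5 at or below 0.78, a gap that is not there when fragments have equal weight.

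The 5 small heat shock protein genes lie within 14.2 kb on the left arm of chromosome 3 (3L, Release 6), in the order Hsp67Bc, Hsp22, Hsp26, Hsp23 and Hsp27. Because they are neighbors, their values are not independent. In ISC/EBs Pol II occupancy was highest toward the ends of this cluster, at Hsp67Bc and at Hsp27, and in ECs it was highest at Hsp67Bc, with the other 4 genes at 0.18 to 0.65. The median of the 5 was 1.46 in ISC/EBs and 0.54 in ECs. Each of them had a higher value in ISC/EBs than in ECs, by 0.55 to 1.49, and this direction held after both rescalings.

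Hsp67Bc (3L:9371511-9372497) encodes a small heat shock protein that works with the cochaperone Starvin in protein clearance. Its value was 3.44 in ISC/EBs, 1.95 in ECs and 0.94 for Sox21a. It stood at percentile 99.6 of all genes in ISC/EBs, where it ranked 79 by value, and at percentile 95.1 in ECs. Its 4 fragments were all above 1 in both populations, from 2.63 to 4.05 in ISC/EBs and from 1.03 to 2.74 in ECs. Occupancy extended beyond the gene at a somewhat lower level: the 1 kb on its low-coordinate side had 3.19 in ISC/EBs and 1.495 in ECs. That stretch holds Fdx1, a ferredoxin gene that starts 273 bp away, shares 1 fragment with Hsp67Bc and had values of 3.03 and 1.48. In both populations the fragments of Hsp67Bc nearest Hsp22 were higher than those nearest Fdx1. They had 3.43 and 4.05 against 3.33 and 2.63 in ISC/EBs, and 2.20 and 2.74 against 1.51 and 1.03 in ECs.

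Hsp22 (3L:9372931-9374964), which encodes a small heat shock protein of the mitochondrial matrix, had a steep internal gradient. The gene value was 1.09 in ISC/EBs, 0.54 in ECs and 0.68 for Sox21a. Its lowest-coordinate fragment, on the side of Hsp67Bc, reached 2.97 in ISC/EBs and 2.72 in ECs, nearly the same in both. A 1565 bp fragment that makes up 76.9% of the gene had only 0.81 and 0.14, and it sets the gene value. With every fragment given equal weight, the EC value became 1.28 and the ISC/EB value 1.58. All 5 fragments of Hsp22 also overlap CG4456, listed elsewhere as Hsp67Bb (1.25 in ISC/EBs and 0.72 in ECs), and occupancy of these 2 genes cannot be told apart. Hsp22 also had the smallest difference between populations among the small heat shock protein genes, 0.55, which became 0.08 after quantile normalization and 0.29 at equal SD.

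Hsp26 (3L:9376418-9377427), a cytosolic small heat shock protein gene, was the lowest of the 10 in both populations, at 1.05 in ISC/EBs and 0.18 in ECs. Its value rests almost entirely on 1 fragment that covers 94.0% of the gene and also overlaps the neighboring gene CG4461 (1.15 and 0.31). No fragment lies wholly inside Hsp26. Its Sox21a value of -0.06 was the lowest of the set and the only one below 0.

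Hsp23 (3L:9381882-9382765) encodes another cytosolic small heat shock protein and was occupied over its high-coordinate part. Its 3 fragments had 0.09, 1.74 and 2.53 in ISC/EBs and 0.02, 0.35 and 0.73 in ECs, for gene values of 1.46 and 0.37. The lowest of them is a 2647 bp fragment that lies mostly outside the gene, toward asRNA:CR43481 (0.25 in ISC/EBs). Without fragments that overlap another gene, the value was 2.13 in ISC/EBs and 0.54 in ECs.

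Hsp27 (3L:9384063-9385694), whose product is found in the nucleus, had 1.97 in ISC/EBs, 0.65 in ECs and 1.29 for Sox21a, the highest Sox21a value of the 10. All 5 of its fragments reached 1 in ISC/EBs, from 1.33 to 3.19, and 3 of 5 in ECs, where they ran from 0.15 to 1.80. The long fragment at the high-coordinate end, which covers 59.7% of the gene, had the lowest value of the 5 in each Pol II track. The next fragments beyond it, over the pseudogenes CR43483 and CR43482, are listed at exactly 0 in all 3 tracks. Without read counts this cannot be told apart from missing data. The 1 kb on the side of Hsp23 had 1.93 in ISC/EBs and 0.21 in ECs.

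Across the 15.9 kb from Fdx1 to the pseudogene CR43483 next to Hsp27, all 11 genes had a higher value in ISC/EBs than in ECs. This held on the deposited scale and after both rescalings, beside 65.3%, 48.8% (quantile normalized) and 61.9% (equal SD) of all genes. The 11 genes are not separate observations. Hsp22 and CG4456 overlap, and CR43483 was above 0 only through the fragment it shares with Hsp27. Of the 34 fragments, 31 were higher in ISC/EBs as deposited. No share over all fragments was computed, for this count or for the fragment counts of single genes below. Between the ends, Hsp22, CG4456, CG4461 and Hsp26 had 1.05 to 1.25 in ISC/EBs. Hsp67Ba, a further small heat shock protein gene, was lower and had 0.48 in ISC/EBs and -0.07 in ECs. The antisense RNA gene asRNA:CR43481 had 0.25 and -0.04. The map of the cluster shows the high values toward its ends in ISC/EBs and the low stretch before Hsp23.

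**Figure D2:**
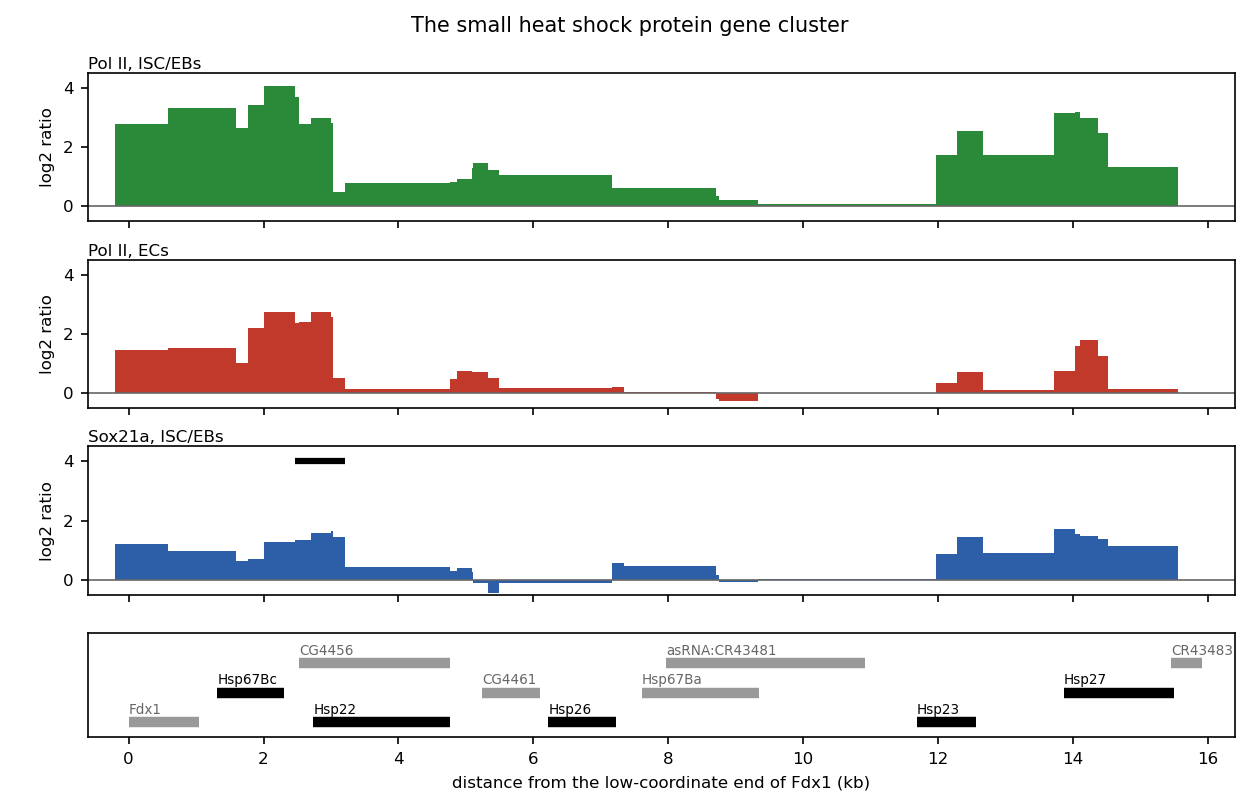
The small heat shock protein gene cluster, with the log2 ratio of each GATC fragment (bars drawn to the width of the fragment) for Pol II in ISC/EBs, Pol II in ECs and Sox21a in ISC/EBs against distance from the low-coordinate end of Fdx1 in kb. The black bar in the Sox21a panel is the deposited Sox21a peak and the lowest panel places the described genes (black) among their neighbors (gray); occupancy in ISC/EBs reaches 4.05 at Hsp67Bc and 3.19 at Hsp27 and is 0.09 in the 2647 bp fragment before Hsp23.

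Hsp68 (3R:24055080-24057310) encodes an inducible member of the Hsp70 family. It resembled the small heat shock protein genes in having a higher value in ISC/EBs (1.65) than in ECs (0.78), and its Sox21a value was 0.50. The difference of 0.87 became 0.41 after quantile normalization and 0.48 at equal SD. Of its 13 fragments, 12 were higher in ISC/EBs. When the gene was divided into 3 equal parts, the high-coordinate part had 2.89 in ISC/EBs and 1.38 in ECs, while the low-coordinate part had 0.995 and 0.60 and the middle part 1.06 and 0.36. Occupancy of Hsp68 was thus highest at its high-coordinate end, where the adjoining 1 kb still had 2.72 and 1.16. The next gene on that side, the cohesin subunit gene SMC1, had 0.27 and 0.14. At the other end Hsp68 overlaps CG6000 and lncRNA:CR44097 (1.65 and 1.12 for both) by a few bases, and the lipid synthesis gene Pisd lies beyond them (1.74 and 1.32).

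Hsc70-4 (3R:15242687-15246614) encodes the main cytosolic Hsp70 of unstressed cells, which also removes clathrin from vesicles. It had the second highest ISC/EB value of the set, 2.50, with 1.84 in ECs and 1.25 for Sox21a. The means of the 3 equal parts fell from the low-coordinate to the high-coordinate side in all 3 tracks. The low-coordinate part had 3.94 in ISC/EBs, 3.05 in ECs and 2.37 for Sox21a, the middle part 2.06, 1.55 and 1.01, and the high-coordinate part 1.48, 0.91 and 0.37. The last of these holds a run of fragments near 0, after which values were again high, at 2.90 in ISC/EBs, 1.68 in ECs and 2.09 for Sox21a in the last fragment of the gene. Single fragments reached 3.99 in ISC/EBs and 3.22 in ECs. Of its 26 fragments, 23 were higher in ISC/EBs as deposited, but the difference of 0.66 became 0.17 after quantile normalization and 0.06 at equal SD. The nearest genes were not occupied in this way. The DNA damage kinase gene tefu on the low side had 0.11 in ISC/EBs and 0.12 in ECs. The ammonium transporter gene Amt on the high side had 0.75 and -0.22.

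Hsc70-3 (X:11801696-11807117) encodes BiP, the Hsp70 of the endoplasmic reticulum (ER). It was one of 2 genes in the set with a higher value in ECs, at 1.88 against 1.44 in ISC/EBs. The difference of -0.44 became -1.01 after quantile normalization and -0.78 at equal SD. Of its 27 fragments, 19 were higher in ECs and 5 in ISC/EBs. The excess in ECs was largest in the middle part of the gene, with 2.18 in ECs and 1.38 in ISC/EBs. The low-coordinate part had 1.515 and 1.12, and the high-coordinate part 1.93 and 1.81. In the low, middle and high parts the differences became -0.87, -1.39 and -0.76 after quantile normalization. At equal SD they were -0.66, -1.13 and -0.55. A 450 bp fragment where the low-coordinate and middle parts meet had 2.91 in ECs, 1.38 in ISC/EBs and -0.88 for Sox21a. The fragments of highest ISC/EB occupancy lay further on, at 2.81 and 3.24, and there ECs had 2.65 and 3.003. On the low-coordinate side CkIIbeta lies 109 bp away and shares 1 fragment with Hsc70-3. CkIIbeta had 1.08 in ISC/EBs, 0.79 in ECs and 1.16 for Sox21a. The shared fragment holds 749 bp of Hsc70-3, at 1.79, 1.88 and 1.42. Without that fragment Hsc70-3 had 1.38 in ISC/EBs, 1.87 in ECs and 0.39 for Sox21a. On the other side CG1578 had 1.59 in ISC/EBs and 1.42 in ECs.

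Hsc70-5 (2R:14252598-14256192), the gene of the mitochondrial Hsp70, had 1.85 in ECs and 1.67 in ISC/EBs. Its difference of -0.18 became -0.76 after quantile normalization and -0.58 at equal SD. The sign changed along the gene. The low-coordinate part had 1.04 in ISC/EBs and 2.04 in ECs, the middle part 1.16 and 1.47, and the high-coordinate part 2.81 and 2.03. The difference in the high-coordinate part, 0.78, became 0.10 after quantile normalization and 0.11 at equal SD, so it stayed above 0 but was small. The low-coordinate end adjoins Mdr50, a gene of an ABC transporter, which shares 1 fragment with Hsc70-5 and had 0.18 in ISC/EBs and 1.52 in ECs. The 1 kb outside that end had 0.52 and 1.55. On the other side CG8531, which also shares 1 fragment with Hsc70-5, had 1.21 and 1.04. That fragment holds 822 bp of Hsc70-5, most of its high-coordinate part, at 3.16 in ISC/EBs, 2.24 in ECs and 1.665 for Sox21a. The fragment before it, which overlaps no other gene, was also higher in ISC/EBs as deposited (2.22 and 1.28). Without fragments that overlap another gene, Hsc70-5 had 1.26 in ISC/EBs, 1.68 in ECs and 0.21 for Sox21a.

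Each of the 3 cognate genes contained a run of short fragments near 0 in both Pol II tracks, within 0.1 of 0. These were 8 fragments totalling 458 bp in Hsc70-3, 3 fragments of 251 bp in Hsc70-4 and 3 fragments of 234 bp in Hsc70-5. Some of these, in Hsc70-3, are listed at exactly 0, which without read counts cannot be told apart from missing data. In Hsp68 1 fragment of 186 bp met this limit, and in Hsp83 none did. The coding sequences of Hsp70 genes are alike, and the sources used here do not say how reads that match several genes were treated, so values of these genes carry that uncertainty. Whether it has a part in the runs near 0 was not tested.

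Hsp83 (3L:3192969-3197059) encodes the cytosolic Hsp90, and it was occupied to a similar extent in ISC/EBs (2.06) and ECs (1.58). As deposited, 18 of its 18 fragments were higher in ISC/EBs, but the difference of 0.48 became -0.029 after quantile normalization and -0.0086 at equal SD, so no direction can be given. Occupancy rose toward the high-coordinate end. The low-coordinate part had 0.67 in ISC/EBs and 0.08 in ECs, the middle part 2.11 and 1.86, and the high-coordinate part 3.41 and 2.80. A 1463 bp fragment at 0.64 and 0.06 covers 35.8% of the gene and lowers its mean, and the median fragment had 2.87 and 2.52. Outside the low-coordinate end the 1 kb had 0.49 and 0.07, and CG14965 there had 0.08 and -0.07. Outside the high-coordinate end occupancy went on at 2.63 and 2.19 through CG14966, which overlaps Hsp83 and had 2.64 and 2.23, to CG32276 at 2.93 and 1.85.

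**Figure D3:**
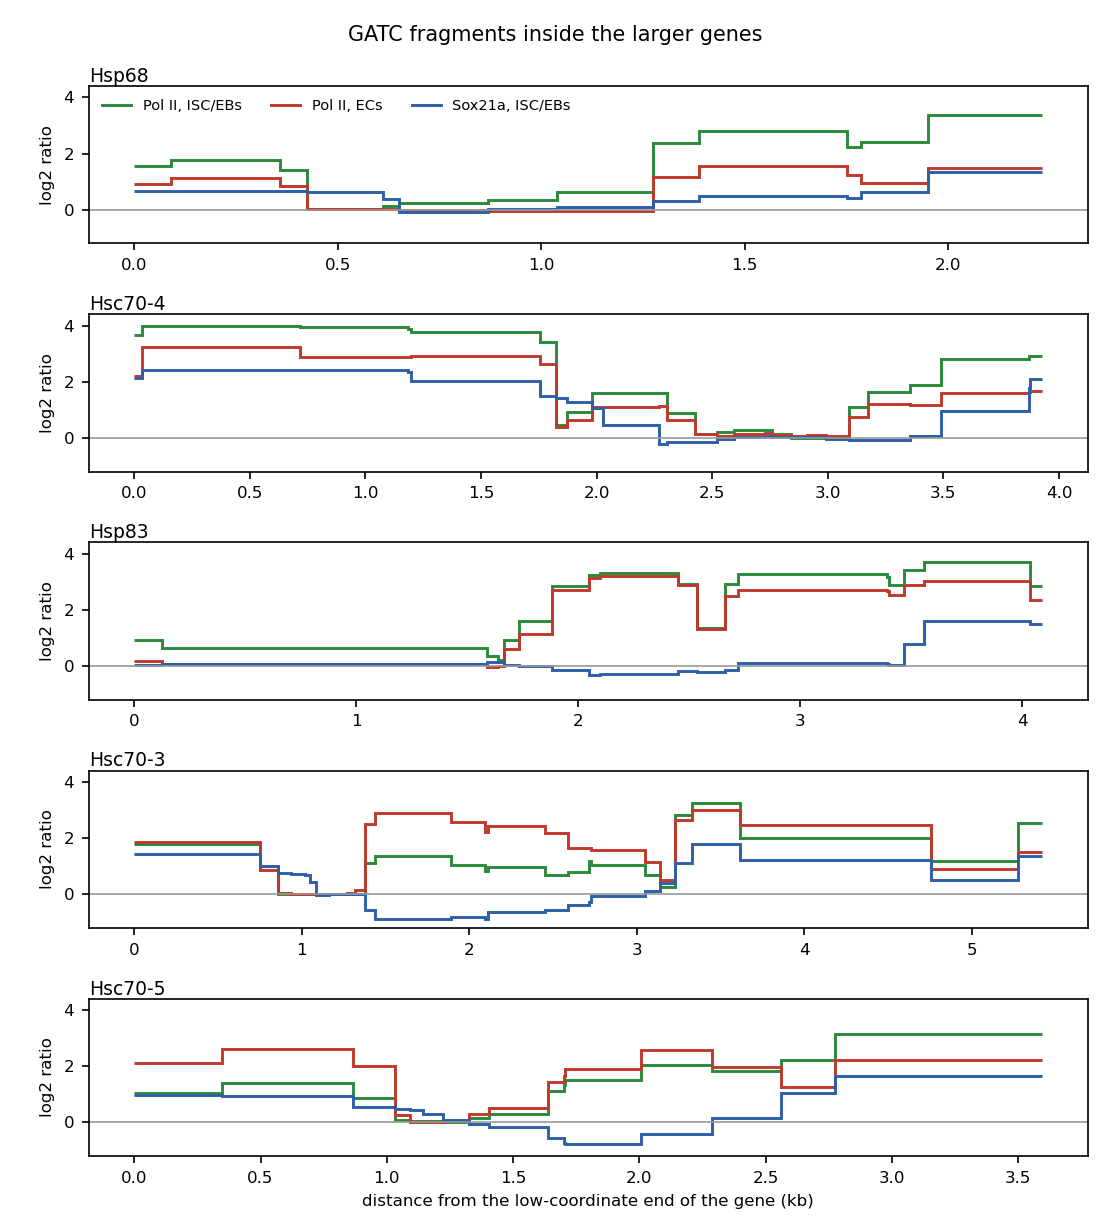
Log2 ratio of each GATC fragment along Hsp68, Hsc70-4, Hsp83, Hsc70-3 and Hsc70-5 against distance from the low-coordinate end of the gene in kb, for Pol II in ISC/EBs (green), Pol II in ECs (red) and Sox21a in ISC/EBs (blue). The green line runs above the red one along most of Hsp68 and Hsc70-4, both nearly coincide at 1.36 and 1.33 in the dip of Hsp83, and the red line is above the green one in the middle of Hsc70-3 (2.91 and 1.38) and at the low end of Hsc70-5.

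In the comparison of ISC/EBs with ECs, the small heat shock protein genes and Hsp68 had higher values in ISC/EBs, and the cognate genes and Hsp83, which is both constitutive and heat-inducible, went either way. The 5 small heat shock protein genes and Hsp68 had differences of 0.55 to 1.49 (median 0.98), and all 6 were higher in ISC/EBs on the deposited scale and after both rescalings. The 5 are neighbors in 1 cluster, where the ferredoxin gene Fdx1 differed by 1.55, so they are not independent. Hsp22 had only 0.08 after quantile normalization, and no replicate error is known against which small differences can be weighed. Hsp68 was placed with the 5 with the values known. The 3 cognate genes and Hsp83 had differences of -0.44 to 0.66 (median 0.15). In total 8 of 10 genes were higher in ISC/EBs, where 65.3% of all genes were. After quantile normalization 7 were (48.8% of all genes) and at equal SD 7 were (61.9%), with Hsp83 the gene that changed sign. The median difference of the 10 genes was 0.76 as deposited, 0.28 after quantile normalization and 0.38 at equal SD, and that of all genes was 0.15, -0.0046 and 0.06.

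A difference of at least 1 was reached by Hsp67Bc (1.49), Hsp27 (1.32) and Hsp23 (1.09), so by 3 of 10 genes, where 9.89% of all genes were higher in ISC/EBs by that much. None of the 10 was higher in ECs by at least 1, and 2.66% of all genes were. After quantile normalization the differences of Hsp67Bc, Hsp27 and Hsp23 were 0.89, 0.77 and 0.65, and Hsc70-3 alone passed 1, in the direction of ECs. At equal SD none of the 10 passed 1. The direction of these differences was thus less dependent on the scale of the tracks than their size, as the plot of differences on 3 scales shows.

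**Figure D4:**
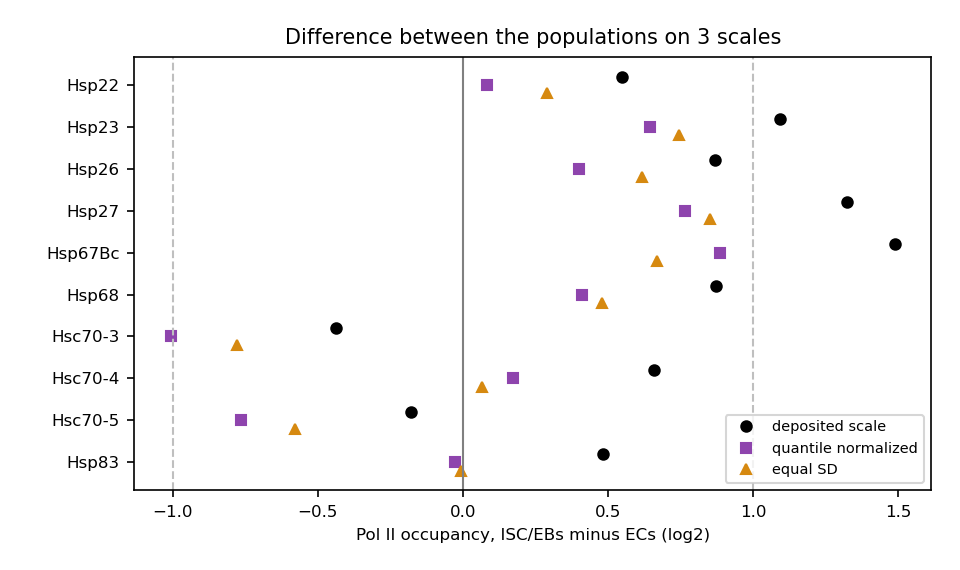
Difference in Pol II occupancy, ISC/EB minus EC (log2), for each heat shock protein gene on the deposited scale (circles), after quantile normalization of both tracks (squares) and with the ISC/EB track scaled to the SD of the EC track (triangles); dashed lines mark -1 and 1. The 5 small heat shock protein genes and Hsp68 stay above 0 on all 3 scales, Hsc70-3 and Hsc70-5 stay below 0, and Hsp83 moves from 0.48 to -0.029 and -0.0086.

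Sox21a, a TF of ISC/EBs, was bound in or next to several of these genes. A mean Sox21a value of at least 0.5 was found in 8 of 10 genes, where 28.1% of all genes had one, with Hsp26 (-0.06) and Hsp83 (0.23) below it. Hsp68 (0.50) and Hsc70-3 (0.53) were only just above. The count was 5 when every fragment had equal weight, with Hsp68, Hsc70-3 and Hsc70-5 then below 0.5. All 10 genes were also occupied by Pol II in ISC/EBs, and over all fragments Sox21a and that Pol II track had a Pearson's r of 0.78. Shares were not computed over the genes occupied in ISC/EBs alone, so a preference for heat shock protein genes was not tested. A deposited Sox21a peak (FDR below 0.01) overlapped 3 of 10 genes, Hsp22, Hsp83 and Hsc70-4, and 17.4% of all genes.

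The clearest Sox21a signal lay over Hsc70-4. A peak of 2535 bp (3R:15242024-15244558, score 2.41, FDR 6.05e-07) covers 47.7% of the gene and begins before its low-coordinate end, over the fragments with the highest Pol II values. A further peak of 1030 bp (score 2.03, FDR 0.00351) starts within the other end and covers 1.48% of the gene. The peak at Hsp83 (3L:3196527-3199399, score 1.79, FDR 5.48e-06) covers the high-coordinate 13.0% of that gene and extends over CG14966 and CG32276. In the last fragments of Hsp83 the Sox21a value was 1.62 and 1.51, but in the middle part of the gene, where Pol II occupancy was 2.11 in ISC/EBs, it was -0.11. The peak at Hsp22 is short (741 bp, 3L:9372657-9373397) and weak, with a score of 1.48 and an FDR of 0.00351. Its score was at percentile 1.63 of the 2769 peaks, whose median score was 2.21. It starts 160 bp from Hsp67Bc and covers 23.0% of Hsp22.

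Genes without a peak also had Sox21a values above 0.5. All 5 fragments of Hsp27 were above 1, from 1.14 to 1.73, although the nearest peak is 10207 bp away, and Hsp23, at 0.78, is 8485 bp from the nearest peak. In Hsc70-3 and Hsc70-5 the Sox21a value was high at the ends of the gene and low in the middle: 0.54, 0.03 and 1.02 in the 3 parts of Hsc70-3, and 0.81, -0.33 and 1.35 in those of Hsc70-5. A fragment at the low-coordinate end of Hsc70-3 and 1 at each end of Hsc70-5 also overlap neighboring genes. Without these fragments the Sox21a values of Hsc70-3 and Hsc70-5 were 0.39 and 0.21, below 0.5. The peaks nearest to these 2 genes are 5726 and 9700 bp away. Hsp68 has its nearest peak at 22302 bp.

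Other chaperone genes were taken from lists of families to see how far the pattern extends. Among 8 other genes listed as small heat shock proteins, 3 reached 1 in ISC/EBs and 1 did so in ECs, with medians of 0.26 and 0.05. The shares of all genes were 29.4% and 18.9%, against which the counts of the other lists stand too. Of the 3, CG4456 (1.25) is listed by its name Hsp67Bb and shares 5 fragments with Hsp22, so it repeats the signal of that member. CG14207 was highest in both, at 1.98 and 1.20, and CG7409 was lowest in both, at -0.16 and -0.10. Of these 8, 4 were higher in ISC/EBs on each of the 3 scales, and 3 of the 4 lie in the cluster described above. Of all genes, 65.3% were higher in ISC/EBs as deposited, 48.8% after quantile normalization and 61.9% at equal SD. Outside the cluster, CG14207 was the one of these genes above 0.04 in ISC/EBs.

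Of 11 other genes of the Hsp70 and Hsp110 families, 1 reached 1 in ISC/EBs, CG7182 at 2.05 (0.88 in ECs), and 1 in ECs, Grp170, the ER member, at 1.15 (0.87 in ISC/EBs). Hsc70-1 had the lowest ISC/EB value (-0.23) and Hsc70-2 the lowest EC value (-0.34). The 6 copies of the classical heat-inducible gene Hsp70 had 0.03 to 0.39 in ISC/EBs and -0.01 to 0.17 in ECs. Their sequences are nearly identical, so reads could be split among them or lost, and these low values are uncertain. Apart from these copies, the ISC/EB values of the list ran from -0.23 for Hsc70-1 to 2.05 for CG7182.

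The 2 other Hsp90 genes differed from Hsp83 in opposite ways. Gp93, the ER Hsp90, had 0.90 in ISC/EBs and 2.04 in ECs, a difference of -1.14 that became -1.66 after quantile normalization and -1.36 at equal SD. Trap1, the mitochondrial Hsp90, had 1.95 and 1.10, a difference of 0.85 that became 0.26 and 0.39. Among genes of the ER, Hsc70-3, Gp93 and Grp170 had higher values in ECs on all 3 scales, while the ER cochaperones P58IPK and shv had differences of 0.32 and 0.27 as deposited, -0.23 and -0.12 after quantile normalization and -0.02 and -0.10 at equal SD. This grouping was made after their values were seen.

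Of 12 chaperonin genes, which encode ring-shaped folding machines, 7 reached 1 in ISC/EBs and 2 in ECs, with medians of 1.12 and 0.49. The 8 genes of the cytosolic ring had 0.97 to 1.74 in ISC/EBs, CCT5 being highest (1.74, and 1.17 in ECs), while Hsp60C was lowest in both populations (-0.15 and -0.07). Of 13 cochaperone genes, 9 reached 1 in ISC/EBs and 5 in ECs, with medians of 1.32 and 0.69. The highest were Stip1, which links Hsp70 to Hsp90, at 2.06 in ISC/EBs, and the J protein gene DnaJ-1 at 1.71 in ECs, and jdp was lowest in both (-0.12 and -0.10). Of 6 stress regulator genes, 4 reached 1 in ISC/EBs and 2 in ECs. Xbp1, a TF of the unfolded protein response, was highest at 2.18 and 1.56, and Atf6 lowest at -0.09 and -0.06. Hsf itself had 1.13 in ISC/EBs and 0.83 in ECs. In the 3 lists together, 24 of 31 genes were higher in ISC/EBs as deposited, 16 after quantile normalization and 20 at equal SD, beside 65.3%, 48.8% and 61.9% of all genes.

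**Figure D5:**
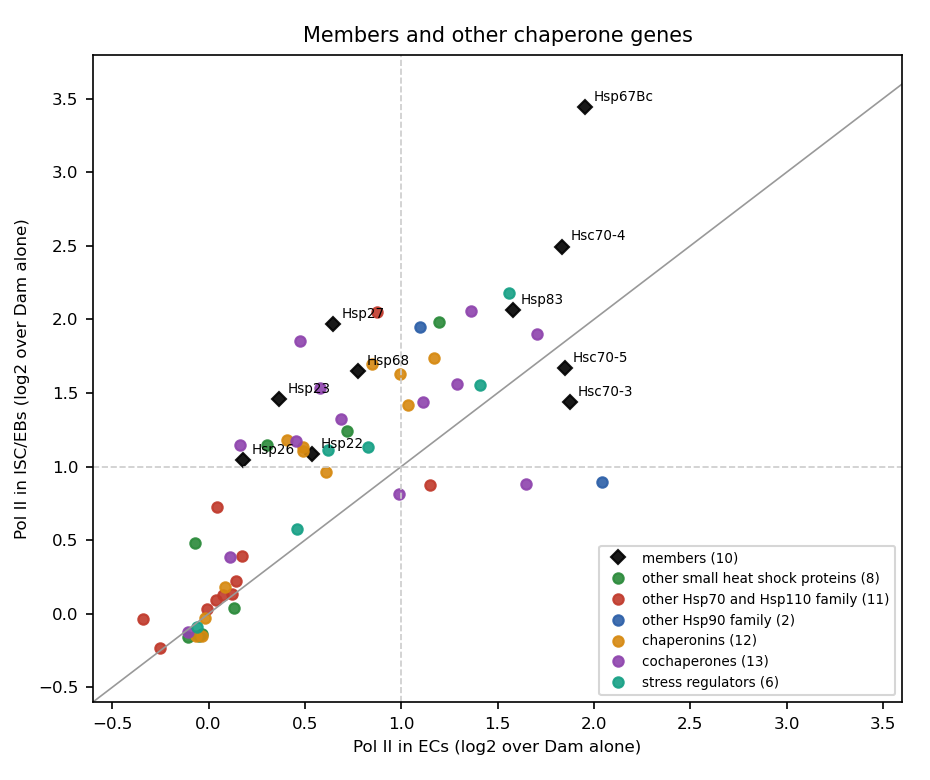
Pol II occupancy in ISC/EBs against that in ECs (log2 over Dam alone) for the 10 heat shock protein genes (black diamonds, named) and 52 other chaperone and stress genes colored by list, with the line of equal values and dashed lines at 1. All 10 named genes lie above the dashed line at 1 on the vertical axis, Hsc70-3 and Hsc70-5 are below the line of equal values, and Gp93 (blue, 2.04 in ECs and 0.90 in ISC/EBs) lies furthest below it on this deposited scale, as it does after both rescalings.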

How the data were processed

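Targeted DamID libraries were made from adult midgut DNA cut with DpnI at methylated GATC sites, treated with DpnII, amplified and sequenced. The authors deposited 1 track of log2 ratios of Dam fusion to Dam alone per experiment, averaged over samples (2 Dam-Pol II and 2 Dam in ISC/EBs, 2 and 2 in ECs, 3 Dam-Sox21a and 3 Dam in ISC/EBs). The deposited Sox21a peaks carry a score, whose scale is not stated, and an FDR below 0.01. For the aligner, the scaling of libraries, the genome build and the peak caller, nothing is stated in the sources used here. The chromosome ends of the tracks fit Release 6, so genes were placed with the RefSeq table of that release, which has no strand or exons. Positions of fragments and peaks are as deposited. The authors' per-gene FDR tables were not used.

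Gene values were length-weighted means over overlapping fragments, for 17802 of 17872 genes with at least 1 fragment. Thresholds were 1 (Pol II and differences) and 0.5 (Sox21a), and a peak had to overlap a gene by at least 1 bp. The ISC/EB track was also multiplied by 0.761 (equal SD), or both Pol II tracks were quantile normalized. Other weights, fragments, windows and thresholds were tried. The averaged tracks give no depth, so no interval is given, and overlapping genes cannot be told apart, since DamID has no strand. The members and lists were chosen with earlier results of these data known. Named genes were all members, the genes next to or overlapping them, the highest and lowest genes of each list in each Pol II track, and the 3 genes with at least 5 fragments nearest to Hsp26, Hsp83 and Hsc70-4 over the 3 tracks. Hsf, Hsp67Ba, P58IPK, shv and the ranges of the Hsp70 copies and the cytosolic chaperonins are given in addition. Symbols not in the table were matched through its synonyms. Tested on simulated data, the computation gave 200 of 200 gene means equal to a direct sum. It also recovered 200 of 200 raised genes, but these were raised and read through the same fragment search. That second outcome was fixed in advance and does not check the search. Scripts ran under Python 3.11.15 with matplotlib 3.10.9, scipy 1.17.1, pandas 2.3.3 and numpy 2.4.6.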

Additional observations from a re-analysis of the deposited data

How the results depend on the processing

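The choice of scale, threshold and fragment weights moved several counts over the 10 heat shock protein genes. Genes of at least 1 in ISC/EBs numbered 10, and 6 at a threshold of 1.5. In ECs they numbered 5, and 8 at a threshold of 0.5. Genes at least 1 apart between the populations numbered 3, but 1 after quantile normalization (Hsc70-3, higher in ECs), 0 at equal SD, 7 at a threshold of 0.5 and 0 at 1.5. Genes of at least 0.5 for Sox21a numbered 8, but 5 with the unweighted mean, 4 with the median, 5 with fragments wholly inside the gene, 5 with fragments that overlap no other gene, and 2 at a threshold of 1. Genes under a peak numbered 3, and 0 when peaks had to cover at least 50% of the gene. For the counts above under other settings, no share of all genes was computed. The difference of Hsp83 reversed to -0.029 after quantile normalization and -0.0086 at equal SD. The cause of these shifts was not tested beyond the construction of each setting. The median difference, 0.76 over the set, became 0.28 after quantile normalization and 0.38 at equal SD, and 0.57 to 0.77 under the other settings. The other counts stayed within 1.5 times the value given. Hsp26 has no fragment wholly inside it and Hsp22 none free of another gene, so these settings cover 9 of 10 genes.

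No paired analysis was possible because each experiment has 1 averaged track, and leaving out single samples was not possible for the same reason. The spread between samples and the depth are unknown, so no difference here can be weighed against replicate error. Values of genes with few fragments, such as Hsp26 with 2 and Hsp23 with 3, rest on little data.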

Other observations

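Genes with values most like those of 3 of the heat shock protein genes were sought by Euclidean distance over Pol II in ISC/EBs, Pol II in ECs and Sox21a, among genes with at least 5 fragments. Nearest to Hsp26 were Polr2F, a gene of a shared RNA polymerase subunit (distance 0.0423), CG9147 (0.0595) and Miga (0.0604). Nearest to Hsp83 were Pmm2 (0.107), Txl (0.113) and Dhdds (0.132), and nearest to Hsc70-4 were CG10863 (0.0782), CG14647 (0.0957) and UQCR-Q, a gene of the respiratory chain (0.0958). None of these 9 genes is a heat shock protein gene, and a short distance says only that 3 mean values are alike.

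Across the 119 distinct fragments of the 10 genes, Pol II in ISC/EBs and in ECs had a Pearson's r of 0.80, Pol II in ISC/EBs and Sox21a 0.56, and Pol II in ECs and Sox21a 0.24. Over all 383654 fragments these were 0.67, 0.78 and 0.52. Fragments of a gene are neighbors and not independent, so these are descriptions only. The fragments over these genes thus had a lower correlation of Sox21a with Pol II, and a higher one between the populations, than fragments of the whole genome. All 10 genes were occupied in ISC/EBs, and fragments of other occupied genes were not compared. Whether the contrast is particular to these genes was not tested.

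Some surroundings of these genes differed from the genes themselves. From 2 to 5 kb on the low-coordinate side of Hsc70-4, occupancy was -0.26 in ISC/EBs and -0.11 in ECs, against 3.04 and 2.02 in the first 1 kb. Around Hsc70-5, EC values stayed at 1.22 to 1.55 over 10 kb on the low-coordinate side, where ISC/EB values were 0.05 to 0.59. From 5 to 10 kb from Hsp27 on the high-coordinate side, EC values (1.21) were higher than ISC/EB values (0.71), the opposite of the cluster itself.

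Of the cochaperones, the J protein gene mrj had one of the larger excesses in ISC/EBs (1.86 against 0.47 in ECs, 0.90 after quantile normalization), and Csp, the gene of a J protein of synaptic vesicles, was higher in ECs (1.65 against 0.88). The Hsp110 gene had 0.73 in ISC/EBs, 0.05 in ECs and 0.81 for Sox21a. These genes were picked after their values were seen.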
